A study of Mus musculus with 12 samples.

Results

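Major urinary proteins (MUPs) are small secreted lipocalins, barrel-shaped carriers of hydrophobic ligands, that the mouse liver makes in large amounts and the kidney passes into urine, where they bind and slowly release pheromones. Their genes form a tandem cluster on chromosome 4, with a central block of near-identical copies and a few more divergent genes at its edges. In liver they are driven by pulsatile growth hormone through STAT5 and respond to androgen, glucocorticoid and thyroid hormone. Some members are also transcribed in salivary, lacrimal and mammary glands, in nasal tissue and in fat. The 10 genes described here are Mup1, Mup2, Mup3, Mup7, Mup9, Mup10, Mup11, Mup14, Mup17 and Mup20, taken by symbol from the 43346 genes of a read-count table made from mouse veins. The members were chosen by their CPM (counts scaled to the library total), which was known to be lower in AVF-CKD than in sham libraries, so that difference is described and not tested.

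RNA-seq libraries were made from veins under 2 labels, all harvested 7 days after surgery. The 6 AVF-CKD libraries came from the venous limb of the AVF, and the 6 sham libraries from the jugular vein. The labels do not spell these letters out. They are read here as arteriovenous fistula, a surgical join of an artery to a vein, and chronic kidney disease. Strain, sex, age, the way kidney disease was produced and any allele are not given in the labels, nor whether each library came from a separate mouse. The p-values below therefore measure the spread between libraries, which may be technical. The vessel as labelled, the operation and any kidney disease go with the group and cannot be told apart. Whether the venous limb was itself a jugular vein is not known here, nor whether sham mice also had kidney disease.

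The libraries held 38653830 to 52003341 counted reads in AVF-CKD and 43445591 to 60142016 in sham. Markers of endothelium and smooth muscle, which are not particular to veins, were plentiful in both groups. Pecam1, an endothelial adhesion molecule, averaged 380.4 ± 90.1 CPM (counts scaled to TMM-adjusted library totals) in AVF-CKD and 419 ± 35.6 CPM in sham (SD, n = 6 each), and Acta2, smooth muscle actin, averaged 734 ± 163 CPM in AVF-CKD and 954 ± 196 CPM in sham. Transcripts of the Y-linked gene Ddx3y stood at 65.3 to 102 CPM in AVF-CKD and 63.1 to 102 CPM in sham. Xist, the X-inactivation transcript of females, stood at 0 to 0.194 CPM in AVF-CKD and 0.134 to 2.04 CPM in sham. Ddx3y reads were thus present in all 12 libraries, with overlapping ranges. The Y-linked genes Eif2s3y and Kdm5d averaged 68.1 ± 5.10 and 30.3 ± 3.23 CPM in AVF-CKD, and 72.3 ± 5.65 and 30.8 ± 3.08 CPM in sham. Of 5 sex-linked genes 4 passed the filter on low counts, with 0 called and a median log2 fold change of -0.025.

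The members lie between base 60066469, where Mup7 begins, and base 62087342, where Mup3 ends, on chromosome 4 of GRCm38. In GENCODE M21 their main spliced transcripts are close to each other in length, and the coding sequences run from 543 bases in 7 of them to 546 in Mup11 and Mup20 and 555 in Mup3. The coding sequences of the 8 members other than Mup3 and Mup20 were 98.35% to 99.63% identical over the 28 pairs. Any pair with Mup3 or Mup20 was 82.16% to 91.39% identical. A short coding stretch shows how little there is to tell the central copies apart. Coding bases 4 to 93 of 7 copies are shown, and capitals mark a base that differs from Mup10. This window was picked for having the most differences from Mup10, summed over the copies, of any 90-base window searched in the first 540 bases. It is thus not a typical stretch, and even here reads decide among the copies at only a few positions. All 7 lie on the minus strand of chromosome 4 in GRCm38 and are read from the GENCODE transcripts.
Mup10, chr4:60581996-60582085: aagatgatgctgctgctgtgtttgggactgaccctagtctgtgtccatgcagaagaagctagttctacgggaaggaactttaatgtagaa
Mup9, chr4:60421794-60421883: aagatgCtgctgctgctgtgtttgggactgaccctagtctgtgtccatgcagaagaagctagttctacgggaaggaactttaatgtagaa
Mup17, chr4:61595668-61595757: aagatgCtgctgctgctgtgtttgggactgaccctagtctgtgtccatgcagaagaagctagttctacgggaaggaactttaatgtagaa
Mup2, chr4:60139694-60139783: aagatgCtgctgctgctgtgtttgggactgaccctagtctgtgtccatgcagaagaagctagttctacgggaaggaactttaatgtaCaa
Mup1, chr4:60501757-60501846: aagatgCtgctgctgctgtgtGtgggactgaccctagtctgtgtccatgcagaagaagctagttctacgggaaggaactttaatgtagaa
Mup7, chr4:60070208-60070297: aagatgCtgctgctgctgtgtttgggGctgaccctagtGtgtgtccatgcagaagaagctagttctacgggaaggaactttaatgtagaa
Mup14, chr4:61303797-61303886: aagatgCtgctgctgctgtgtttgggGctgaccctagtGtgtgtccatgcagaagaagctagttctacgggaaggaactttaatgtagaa

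Mup10 differed from each of the other 6 at the same base near the start of this stretch. Mup9 and Mup17 were the same as each other throughout it, and so were Mup7 and Mup14. Over the first 540 coding bases Mup10 differed from Mup9 at 2 positions, from Mup2 at 4, from Mup1 at 5, from Mup14 and Mup17 at 6 each and from Mup7 at 7. Mup11 is not shown because its coding sequence is 3 bases longer, which shifts the alignment.

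RefSeq promoters (GRCm38.p6, 250 bases before to 50 after each gene's start) were at hand for 8 of the 10 members, and Mup1 and Mup20 were not matched. Those of Mup2, Mup9, Mup10 and Mup17 were 91.18% to 96.07% identical to each other. The motif TATATAA, searched on both strands, was found in 7 of the 8, against 3.24% of 32851 promoters of the same length. This motif was chosen after the sequences had been seen. It began 25 to 31 bases before the annotated start in Mup2, Mup9, Mup10 and Mup17, while in Mup11, Mup3 and Mup14 the annotated starts lay elsewhere relative to it, at -2, -11 and 13. The stretch around it is shown for Mup10 and 2 other central copies, with TATATAA in capitals, because 7 of the 8 promoters hold this motif. All lie on the minus strand.
Mup10, chr4:60582159-60582235: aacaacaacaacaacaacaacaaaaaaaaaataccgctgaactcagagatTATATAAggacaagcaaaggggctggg
Mup9, chr4:60421957-60422033: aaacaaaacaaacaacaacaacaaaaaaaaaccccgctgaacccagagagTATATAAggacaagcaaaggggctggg
Mup2, chr4:60139857-60139933: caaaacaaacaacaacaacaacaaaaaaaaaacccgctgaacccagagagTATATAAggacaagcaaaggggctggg

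Of the other motifs searched on both strands, TATAAA was found in 0 of the 8 promoters and 13.6% of all promoters. CCAAT was found in 4 of the 8, against 37.4% of all. TTCNNNGAA, the STAT5 motif, was found in 0 of the 8 and 8.3% of all, and TGTTCT, a motif of the glucocorticoid receptor, in 1 of the 8 and 19.0% of all. These counts describe the letters of a 300-base window only.

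Taken as a family, the 10 genes were present at low levels in every vein and lower in each AVF-CKD library than in any sham library. Their summed level was 9.31, 11.9, 11.5, 13.5, 8.59 and 10.8 CPM in AVF-CKD libraries 1 to 6, and 27.9, 26.7, 49.5, 17.6, 17.0 and 39.4 CPM in sham libraries 1 to 6. The groups did not overlap, and sham libraries 3 and 6 stood highest. The mean was 10.9 ± 1.78 CPM in AVF-CKD and 29.7 ± 12.7 CPM in sham (SD, n = 6 each), a ratio of 0.368. The fitted log2 fold change of the sum was -1.44 ± 0.25 (SE). The coefficient of variation was 16.3% in AVF-CKD and 42.7% in sham. The sum rested on 3044 reads in AVF-CKD and 9165 in sham. In bulk tissue, fewer cells of a type and less RNA per cell cannot be told apart.

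**Figure D1:**
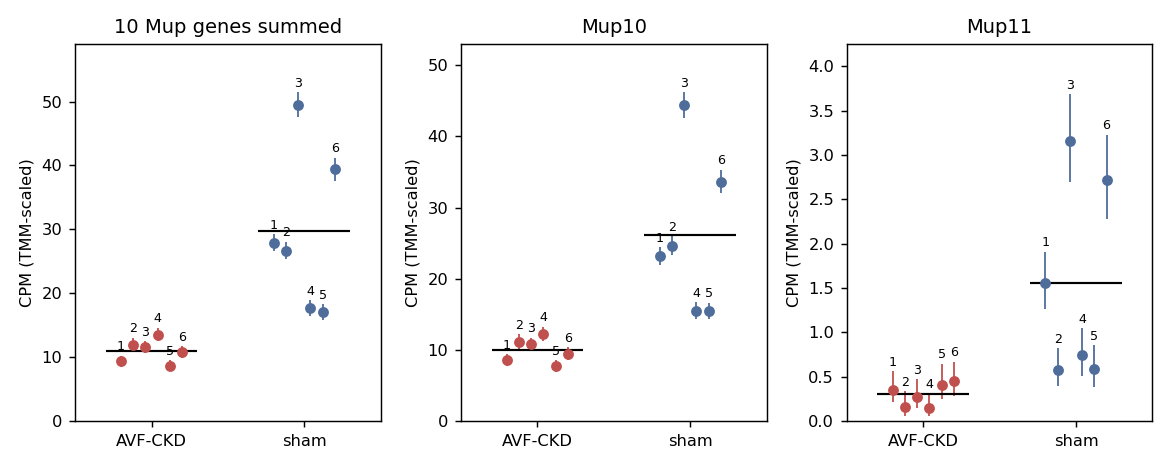
TMM-scaled CPM (vertical axes from 0) of the 10 Mup genes summed, of Mup10 and of Mup11 in each library, AVF-CKD on the left and sham on the right of each panel. Points are libraries labelled by number, vertical bars are 95% exact Poisson intervals that cover counting error only, and horizontal lines are group means. The summed AVF-CKD points sit between 8.59 and 13.5 CPM, below all sham points, which run from 17.0 to 49.5 CPM.

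Nearly all of this signal was assigned to Mup10. Mup10 (ENSMUSG00000078680, chr4:60578260-60582199) held 433, 428, 508, 571, 340 and 487 reads in AVF-CKD libraries 1 to 6, and 1383, 1363, 2315, 668, 713 and 1621 reads in sham libraries 1 to 6. Its level averaged 9.95 ± 1.69 CPM in AVF-CKD and 26.1 ± 11.2 CPM in sham (SD, n = 6 each), with no overlap between the groups. The log2 fold change was -1.39 ± 0.25 (SE). Mup10 took 87.6% to 93.4% of the summed reads in AVF-CKD libraries and 83.1% to 92.5% in sham libraries. These ranges overlap between the groups, while those of the summed level do not. Within a library, the 95% exact binomial interval of that share was at its widest from 86.2% to 92.6%, in AVF-CKD library 5.

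Mup11 (ENSMUSG00000073834, chr4:60658466-60662411), the next Mup gene along the chromosome and the next by reads, had 18, 6, 13, 7, 18 and 23 reads in AVF-CKD libraries 1 to 6, and 93, 32, 165, 32, 27 and 131 reads in sham libraries 1 to 6. The groups did not overlap. It averaged 0.298 ± 0.127 CPM in AVF-CKD and 1.56 ± 1.14 CPM in sham (SD, n = 6 each), a log2 fold change of -2.37 ± 0.50 (SE). Sham libraries 1, 3 and 6 were the high ones.

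Mup14 (ENSMUSG00000073830, chr4:61300023-61304000) had 7 to 13 reads in AVF-CKD libraries and 16 to 40 in sham libraries, again without overlap. It averaged 0.183 ± 0.0488 CPM in AVF-CKD and 0.551 ± 0.204 CPM in sham (SD, n = 6 each), a log2 fold change of -1.58 ± 0.28 (SE). Mup7 (ENSMUSG00000073842, chr4:60066469-60070475) had 6 to 14 reads in AVF-CKD and 13 to 35 in sham. It averaged 0.210 ± 0.0549 CPM in AVF-CKD and 0.440 ± 0.151 CPM in sham (SD, n = 6 each), a log2 fold change of -1.06 ± 0.27 (SE), and its groups overlapped, with 0.299 CPM as the highest AVF-CKD value and 0.282 CPM as the lowest sham value.

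Mup3 (ENSMUSG00000066154, chr4:62083476-62087342) is an edge gene whose sequence sets it apart from the central copies. It had 6, 7, 3, 10, 2 and 25 reads in AVF-CKD libraries 1 to 6, and 31, 28, 16, 29, 6 and 60 reads in sham libraries 1 to 6. The groups overlapped through AVF-CKD library 6 and sham library 5. Mup3 averaged 0.184 ± 0.161 CPM in AVF-CKD and 0.563 ± 0.384 CPM in sham (SD, n = 6 each), a log2 fold change of -1.58 ± 0.57 (SE). Leaving out single libraries moved it both ways, to -2.16 without AVF-CKD library 6 and to -1.18 without sham library 6.

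The other 5 members were at the edge of detection and did not pass the filter on low counts. Mup17 (ENSMUSG00000096688) had 19 reads over the 6 AVF-CKD libraries and 77 over the 6 sham libraries, of which 56 were in sham library 1. Mup2 (ENSMUSG00000078688) had 4 reads in AVF-CKD and 22 in sham. Mup1 (ENSMUSG00000078683) had 5 reads in AVF-CKD and 18 in sham, and Mup9 (ENSMUSG00000078686) 1 in AVF-CKD and 20 in sham. Mup20 (ENSMUSG00000078672), the gene of darcin, the male pheromone protein, had 0 reads in AVF-CKD and 8 in sham, 7 of them in sham library 1. A count of 0 allows up to 3 reads, so Mup20 was not detectable in AVF-CKD at this depth. These 5 genes enter the sum but were not fitted singly.

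**Figure D2:**
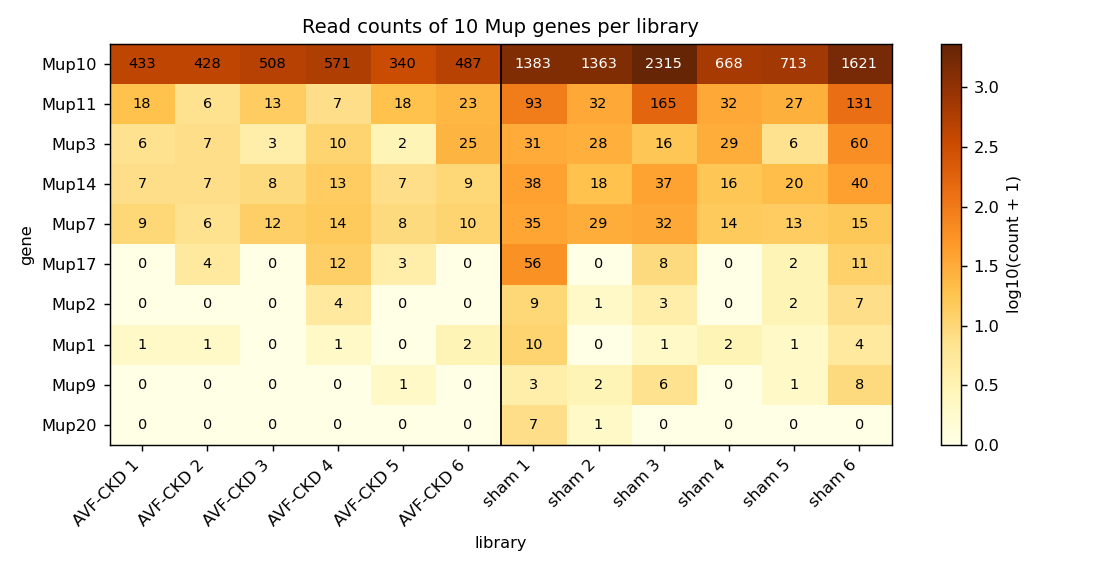
Read counts of the 10 Mup genes (rows, by total count) in the 12 libraries (columns, AVF-CKD left of the black line, sham right), with the count printed in each cell and the colour on a log10(count + 1) scale. Mup10 holds 340 to 571 reads in AVF-CKD libraries and 668 to 2315 in sham libraries, and the lower 5 rows are at or near 0 in most libraries.

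Over all genes tested, the comparison of AVF-CKD with sham gave no call in the main test. With edgeR's quasi-likelihood test and Benjamini-Hochberg adjustment, 0 of 18965 genes were called higher and 0 lower (0%), with 1772 genes at an unadjusted p below 0.05. DESeq2 called 67 genes higher and 39 lower, with 2002 at an unadjusted p below 0.05. Groups failed to overlap, with AVF-CKD the lower, in 42 genes (0.221%), and Mup10, Mup11 and Mup14 were 3 of them, while AVF-CKD was the higher in 79 genes (0.417%). A log2 fold change of -1 or below was found in 127 genes (0.67%), among them the 5 members that passed the filter, and a log2 fold change below 0 in 50.9%. Because the members were picked for this contrast, nothing is read from these counts of members. Mup3, Mup7, Mup11 and Mup14 also passed the filter on low counts only because their sham libraries were counted.

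Per transcript length, the order of the members was the same at its top in both groups. On the deposited RPKM scale Mup10 stood at 6.12 ± 1.06 in AVF-CKD and 16.1 ± 6.87 in sham (SD, n = 6 each), and its lowest library was above the highest library of the next gene in each group. The deposited length of Mup10, 1391 bases, also covers a transcript with a retained intron. In AVF-CKD the next were Mup7 at 0.174, Mup11 at 0.162, Mup3 at 0.147 and Mup14 at 0.113 RPKM. In sham they were Mup11 at 0.850, Mup3 at 0.453, Mup7 at 0.364 and Mup14 at 0.343 RPKM. Mup17 stood at 0.0655 RPKM in AVF-CKD and 0.211 RPKM in sham, and Mup1, Mup2, Mup9 and Mup20 at 0 to 0.00956 RPKM in AVF-CKD and 0.0208 to 0.0447 RPKM in sham. Neighbours below Mup10 overlapped in their library ranges in both groups, so their order is not resolved.

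How far these counts belong to single genes depends on the sequence that only a gene has. The share of 50-base words of the spliced transcript found in no other GENCODE M21 gene was 84.4% for Mup3 and 49.5% for Mup20. It was 21.9% for Mup17, 13.8% for Mup10 (121 of 878 words), 11.01% for Mup11, 7.85% for Mup9, 5.24% for Mup1, 3.64% for Mup7 and 2.40% for Mup14, and Mup2 had 0 such words of 878. Over all annotated transcripts of each gene, retained introns included, the share was 23.47% for Mup10 (315 of 1342 words), 21.87% for Mup17 and 86.73% for Mup3, and it ran from 13.32% to 49.49% in the other 7. How much sequence a central copy has of its own thus depends on which of its transcripts are taken. Over the 12 libraries Mup10 had 89.5 reads per gene-specific word of the spliced transcript, against 10.5 for Mup14, 6.16 for Mup7, 5.83 for Mup11, 0.5 for Mup17 and for Mup1, 0.328 for Mup9, 0.283 for Mup3 and 0.0184 for Mup20. Since the counts cover whole gene models, these values are high for genes with longer models. With the words of all transcripts, Mup10 had 34.4 reads per word, Mup11 1.61, Mup7 1.37, Mup14 0.996, Mup17 0.5, Mup3 0.231, Mup2 0.0929, Mup9 0.0627, Mup1 0.0378 and Mup20 0.0184. Mup10 was first by both measures, and the order of Mup14, Mup7 and Mup11 was reversed between them. How the authors treated reads that map to several copies is not given in the sources used here, and the genome's introns were not searched. The count of a single central copy is therefore uncertain, and the sum is given beside it.

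**Figure D3:**
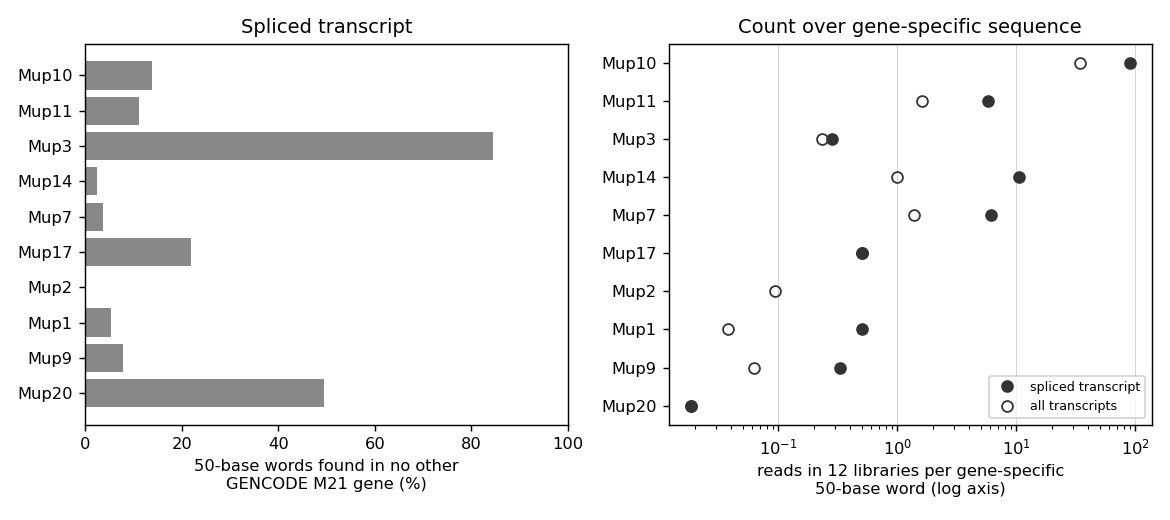
Left, the share of 50-base words of each member's spliced transcript that occur in no other GENCODE M21 gene, in percent. Right, reads over all 12 libraries divided by the number of such words, on a log axis, with filled points for words of the spliced transcript (Mup2 has none) and open points for words of all transcripts of the gene. Mup10 stands at 89.5 by the spliced transcript and at 34.4 by all transcripts, the highest value by each.

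The 10 genes held 98.98% of all reads of the family. The table has 51 models whose symbol begins with Mup, of which 21 are genes and 30 are pseudogenes. The 11 genes outside the 10 had 21 reads in AVF-CKD and 76 in sham, and 4 of them had 0 reads in all libraries. Of the 30 pseudogenes 26 had 0 reads, and the others held 19 reads in AVF-CKD and 10 in sham together. Their inclusion left the log2 fold change of the sum at -1.44. Without Mup10 the other 9 members gave -1.85 ± 0.34 (SE).

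Among libraries of 1 group, the copies did not always rank alike. Mup11 took 1.11% to 4.75% of the summed reads in AVF-CKD libraries and 2.17% to 6.91% in sham libraries. In AVF-CKD, library 4 had the most Mup10 reads, 571, with 7 of Mup11, and library 5 the fewest Mup10 reads, 340, with 18 of Mup11. In sham, libraries 3, 6 and 1 had the most reads of both genes. By CPM, which allows for depth, sham library 2 stood above sham library 1 in Mup10 (24.7 against 23.2 CPM). Sham library 2 also held the lowest sham value of Mup11, 0.579 CPM. The within-group standard deviation of log2 CPM was 0.46 for Mup10, against a median of 0.25 over all genes tested.

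The level of the family was then set beside markers of tissues in which Mup genes are known to be active or that can be carried along with a vein. Markers of fat were lower on average in AVF-CKD, with no gene called. Of 24 adipocyte genes 23 passed the filter, and all 23 had a fold change below 0, against 50.9% of all genes tested. Among them 0 were called, as over all genes tested (0%). Their median log2 fold change was -0.91, against -0.00248 over all genes tested. Their summed level was 2238 to 4626 CPM in AVF-CKD and 3196 to 14647 CPM in sham. Without sham library 6 the median was -0.38. Car3, a carbonic anhydrase abundant in fat, averaged 579.5 ± 180.4 CPM in AVF-CKD and 1160.1 ± 733 CPM in sham. Cfd, the adipokine adipsin, averaged 453 ± 126 CPM in AVF-CKD and 834 ± 529 CPM in sham, and Fabp4, the fatty acid carrier of adipocytes, 399 ± 126 CPM in AVF-CKD and 697 ± 418 CPM in sham (SD, n = 6 each). With the adipocyte score as a covariate, the log2 fold change of the summed Mup genes was -1.22 ± 0.24 (SE).

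Gland markers stood highest, by their mean log2 CPM, in sham library 6, though single markers were raised elsewhere too. Of 26 genes of neck glands and epithelium 10 passed the filter, 1 with a fold change above 0 and 9 below, 0 called, with a median of -0.54, or -0.13 without sham library 6. Their summed level was 21.1 to 34.9 CPM in AVF-CKD and 28.4 to 202 CPM in sham. Klk1, a glandular kallikrein, stood at 0.757 to 2.29 CPM in AVF-CKD and at 0.510 to 3.80 CPM in sham libraries 1 to 5, with 101 CPM in sham library 6. Pth, parathyroid hormone, had 222 reads in AVF-CKD, nearly all of them in a single library at 4.30 CPM, and 0 reads in sham. Its AVF-CKD mean was 0.727 ± 1.75 CPM (SD, n = 6). Krt18, an epithelial keratin, reached 7.06 CPM in AVF-CKD and 10.6 CPM in sham. Amy1, salivary and liver amylase, averaged 14.2 ± 3.50 CPM in AVF-CKD and 23.0 ± 11.8 CPM in sham, and Aqp5, the water channel of secretory acini, 3.27 ± 1.08 CPM in AVF-CKD and 4.50 ± 2.48 CPM in sham (SD, n = 6 each). Without sham library 6 the summed Mup genes had a log2 fold change of -1.34 ± 0.25 (SE), and with the gland score as a covariate -1.40 ± 0.25.

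Most markers of liver were at or near 0, though Cyp2e1 and Ahsg were not. Of 22 genes of liver secretion and hepatocytes 17 stayed under 1 CPM in every library, and 5 had 0 reads, among them Ttr, the thyroxine carrier transthyretin. Alb, serum albumin, had 12 reads over the AVF-CKD libraries and 8 over the sham libraries, and Fga, a fibrinogen chain, 0 in AVF-CKD and 2 in sham. Of the 6 liver genes that passed the filter 3 had a fold change above 0 and 3 below, with 0 called and a median of -0.06. Ahsg, the plasma protein fetuin-A, had 1046 reads in AVF-CKD and 928 in sham and averaged 3.84 ± 2.26 CPM in AVF-CKD and 3.02 ± 1.37 CPM in sham, and Serpina3k, a protease inhibitor, 0.644 ± 0.306 CPM in AVF-CKD and 0.711 ± 0.172 CPM in sham (SD, n = 6 each).

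Cyp2e1, a cytochrome P450 of ethanol metabolism that is known from hepatocytes and is also made in fat, was the exception in that list. Its level was 179, 137, 105, 138, 149.7 and 101 CPM in AVF-CKD libraries 1 to 6, and 275, 252, 328, 139, 67.3 and 305 CPM in sham libraries 1 to 6. The groups overlapped, since sham libraries 4 and 5 lay within or below the AVF-CKD values, and edgeR gave -0.76 ± 0.31 (SE) on the log2 scale with an adjusted p of 0.501. With Cyp2e1 as a covariate the summed Mup genes had a log2 fold change of -1.04 ± 0.20 (SE), a fit chosen after its values were seen.

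Skeletal muscle varied widely between libraries of both groups. Of 20 muscle genes 19 passed the filter, 5 with a fold change above 0 and 14 below, 0 called, with a median of -0.22. Their summed level was 1332 to 18574 CPM in AVF-CKD and 816 to 18651 CPM in sham. Acta1, skeletal actin, averaged 985 ± 896 CPM in AVF-CKD and 1059 ± 818 CPM in sham. Myh4, a fast myosin, averaged 855 ± 865 CPM in AVF-CKD and 1125 ± 1242 CPM in sham. Atp2a1, the sarcoplasmic calcium pump, averaged 596 ± 556 CPM in AVF-CKD and 746 ± 692 CPM in sham (SD, n = 6 each).

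Within each group of 6, the summed Mup level was correlated with 4 tissue scores and with Dbp, a clock output gene, giving 10 relations tested by two-sided exact permutation over 720 pairings. None of the 10 passed Benjamini-Hochberg adjustment. The lowest p was that of the muscle score in sham, where Mup was lower in the libraries with more muscle (Pearson r = -0.88, exact permutation p = 0.00972, adjusted 0.0972; rho = -0.89, p = 0.0333, adjusted 0.167; r = -0.89 without the 2 libraries farthest from the median). In AVF-CKD the same relation had r = 0.15 (exact permutation p = 0.758) and rho = 0.26 (p = 0.658). The difference between the groups' correlations was not tested.

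For the adipocyte score the relation was r = 0.49 (exact permutation p = 0.335) and rho = 0.26 (p = 0.658) in AVF-CKD, and r = 0.08 without AVF-CKD libraries 3 and 4. In sham it was r = 0.59 (exact permutation p = 0.224, adjusted 0.745) and rho = 0.94 (p = 0.0167, adjusted 0.167), and r = 0.97 without sham libraries 5 and 6. In sham the libraries thus ranked almost alike by fat and by Mup, short of the adjusted threshold. The gland score had r = 0.09 and rho = 0.26 in AVF-CKD and r = 0.30 and rho = 0.09 in sham, and the liver score r = 0.61 and rho = 0.49 in AVF-CKD and r = 0.29 and rho = 0.49 in sham, with exact permutation p of 0.206 or above for each r and 0.356 or above for each rho. Dbp had r = -0.08 in AVF-CKD and r = 0.32 in sham (exact permutation p = 0.843 in AVF-CKD and 0.440 in sham), with rho of -0.60 in AVF-CKD and 0.31 in sham (p = 0.242 and 0.564). Without libraries 5 and 6 of each group, r was -0.91 in AVF-CKD and 0.72 in sham.

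Dbp itself varied widely among libraries. It stood at 77.7 to 99.6 CPM in AVF-CKD libraries 1 to 5 and 7.65 CPM in AVF-CKD library 6, and at 93.3 to 107 CPM in sham libraries 1 to 3, against 21.4, 7.25 and 6.15 CPM in sham libraries 4, 5 and 6. Dbp was thus low in AVF-CKD library 6 and in sham libraries 4 to 6.

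The relation with Cyp2e1 was added after its values were seen. Its p-values, even when adjusted, do not allow for that choice, and nothing is concluded from them. In AVF-CKD it had r = -0.42 (exact permutation p = 0.410) and rho = -0.37 (p = 0.497). In sham the 6 libraries had the same order by Cyp2e1 and by Mup, with rho = 1.0 (exact permutation p = 0.00278, the smallest that 720 pairings can give, adjusted 0.0333 over 12 relations), and r = 0.86 (p = 0.0139, adjusted 0.0833), or 0.97 without sham libraries 4 and 5.

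**Figure D4:**
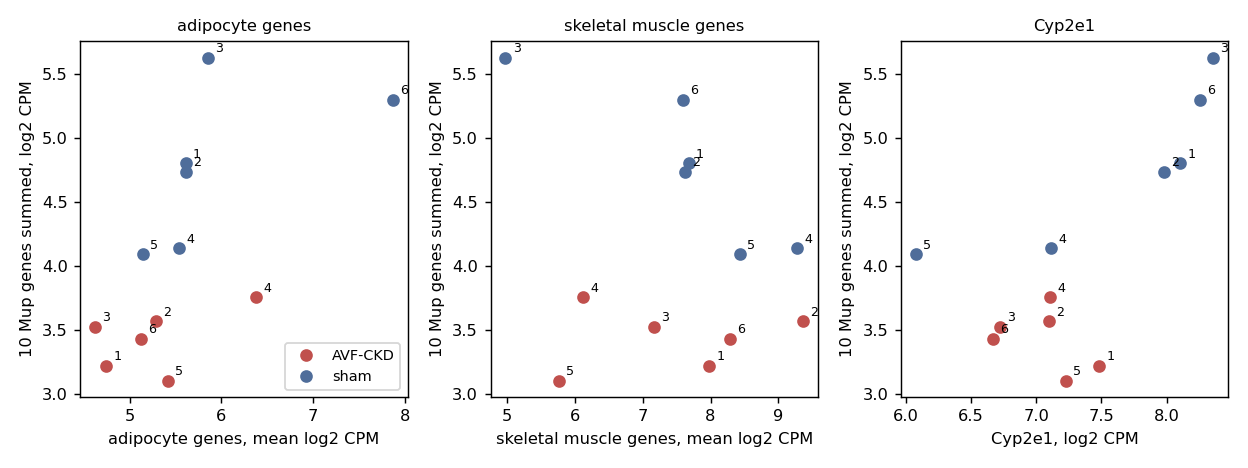
Summed level of the 10 Mup genes (vertical axes, log2 CPM) against the mean log2 CPM of adipocyte genes, the mean log2 CPM of skeletal muscle genes, and the log2 CPM of Cyp2e1, for 6 AVF-CKD and 6 sham libraries, numbered. In AVF-CKD r is -0.42 with Cyp2e1 and 0.15 with muscle, and in sham 0.86 with Cyp2e1 and -0.88 with muscle.

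The genes whose variation within groups was most like that of the summed Mup genes, among 14763 ranked over the 12 libraries by correlation of deviations from the group mean, were Lrg1 (0.92), Cyp2f2 (0.88), Nnmt (0.88), Hp (0.86), Mettl7a2 (0.85), Mgmt (0.84), Prodh (0.84) and Tmem216 (0.83). Lrg1 encodes a secreted leucine-rich glycoprotein, Hp is haptoglobin, the plasma carrier of free haemoglobin, and Nnmt methylates nicotinamide. Taken group by group, the correlation was -0.06 in AVF-CKD and 0.97 in sham for Cyp2f2, -0.0047 in AVF-CKD and 0.96 in sham for Prodh, and 0.32 in AVF-CKD and 0.95 in sham for Mgmt, so the pooled values of these 3 genes come from the sham libraries. For the other 5 it was 0.62 to 0.87 in AVF-CKD and 0.89 to 0.96 in sham. Cyp2f2 is a cytochrome P450, Prodh degrades proline, and Mgmt repairs alkylated DNA. Hp averaged 473 ± 124 CPM in AVF-CKD and 610.0 ± 346 CPM in sham, and Lrg1 50.1 ± 6.92 CPM in AVF-CKD and 63.4 ± 26.0 CPM in sham (SD, n = 6 each). The log2 fold changes of the 8 genes were -0.37 to -0.04, all smaller in size than that of the Mup sum, and their correlations are descriptions over libraries that share depth and tissue make-up.

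Genes of the hormone pathways that control Mup transcription in liver were for the most part present. Of 24 such genes 20 passed the filter, with 0 called, as over all 18965 genes tested (0%), 7 with a fold change above 0 and 13 below, with a median of -0.20. Ghr, the growth hormone receptor, averaged 93.3 ± 17.8 CPM in AVF-CKD and 139 ± 61.5 CPM in sham, with -0.58 ± 0.24 (SE) as the log2 fold change (adjusted p = 0.498 by edgeR). Igf1, a growth hormone target, averaged 314 ± 71.0 CPM in AVF-CKD and 385 ± 55.8 CPM in sham. Nr3c1, the glucocorticoid receptor, averaged 120.5 ± 20.6 CPM in AVF-CKD and 118 ± 10.8 CPM in sham (SD, n = 6 each). The liver factors Hnf4a, Onecut1 and Foxa2 had 2, 0 and 0 reads over all libraries.

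Other lipocalins did not share a direction. Of 18 genes 7 passed the filter, 2 with a fold change above 0 and 5 below, 0 called, with a median of -0.31. Lcn2, the iron-siderophore binding lipocalin of neutrophils and injured epithelium, stood at 27.3, 25.1, 24.0, 73.8, 17.3 and 27.1 CPM in AVF-CKD libraries 1 to 6, and at 6.92, 11.7, 21.9, 15.2, 6.81 and 18.5 CPM in sham libraries 1 to 6. The groups overlapped, and the log2 fold change was 1.26 ± 0.38 (SE), and the adjusted p of edgeR was 0.401. Rbp4, the plasma retinol carrier, averaged 9.65 ± 1.97 CPM in AVF-CKD and 20.9 ± 13.5 CPM in sham (SD, n = 6 each), or -1.12 ± 0.31 (SE) on the log2 scale, where edgeR's adjusted p was 0.390, with 48.2 CPM in sham library 6. Apod, apolipoprotein D, averaged 63.4 ± 22.0 CPM in AVF-CKD and 78.5 ± 18.1 CPM in sham.

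Wall markers had medians nearer to 0 than fat markers. All 10 endothelial genes had fold changes below 0, against 50.9% of all genes tested. Their median was -0.17, with 0 called, as over all genes tested (0%). Of 10 smooth muscle genes 3 were above 0 and 7 below, with 0 called and a median of -0.19. Vwf, von Willebrand factor, averaged 322 ± 93.3 CPM in AVF-CKD and 389.6 ± 96.4 CPM in sham, and Eng, the receptor endoglin, 219.7 ± 21.2 CPM in AVF-CKD and 257 ± 32.5 CPM in sham. Tagln, an actin-binding protein of smooth muscle, averaged 461 ± 104 CPM in AVF-CKD and 621 ± 143 CPM in sham. Des, desmin, which skeletal muscle also makes, averaged 402 ± 319 CPM in AVF-CKD and 352 ± 249.8 CPM in sham (SD, n = 6 each). Beyond the covariate and leave-out values given here, the part that fat, glands, muscle or wall make-up plays in the Mup difference was not tested.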

How the data were processed

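Veins of 12 mouse samples, 6 AVF-CKD and 6 sham, were sequenced after TruSeq RNA preparation, per the labels. The deposited table gave read counts and RPKM per gene. The submitters' processing notes name GRCm38, TopHat2 2.1.0, featureCounts and edgeR. Annotation release, strand setting and the treatment of multi-mapped reads were not given in the sources used here. Deposited counts were used as they stand. The authors' RPKM served only to compare levels between genes. The members and gene lists were chosen with earlier results of these data known. Counts were filtered with filterByExpr, scaled with TMM and tested with edgeR 4.0.16 in R 4.3.3 over 18965 genes (Benjamini-Hochberg, 0.05); log2 CPM used a prior count of 2. SE was the log2 fold change over the root of F. The 10 members were also fitted as a single summed row. The fit was tested on simulated counts. Sequences were compared with Biopython 1.88. For the relations within groups, ranks came from scipy 1.17.1 and all permutations were enumerated directly in Python 3.11.15. Correlations between genes were computed in R. Depth was 38653830 to 60142016 counts per library; intervals cover counting error only. All 66 library pairs differed by more than counting error (lowest chi-square over its degrees of freedom 47.8). Alternatives were other scalings, 2 filters, DESeq2 1.42.0, a replicate block, tissue covariates and leaving out each library. Besides the members, the text names the 3 most abundant genes of each list, Dbp and the 8 most similar genes. Xist, Alb, Ttr, Fga, Hnf4a, Onecut1, Foxa2, Pth and Krt18 were named after their values were seen.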

Additional observations from a re-analysis of the deposited data

Results flagged for a closer look

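In each group of 6 libraries, the gap between an extreme library and its nearest neighbour was set against the group's range, with a limit of 0.625 of the range. About 1 in 20 groups of independent, normally spread values pass such a limit. Sparse counts and genes that vary together are not such values, so no excess is read from the number passing. Of 103 groups of values 17 passed. Among the Mup genes these were Mup14 at 0.278 CPM in AVF-CKD library 4 (the others 0.137 to 0.181), Mup2 at 0.0855 CPM in AVF-CKD library 4 (the others 0), Mup9 at 0.0227 CPM in AVF-CKD library 5 (the others 0), Mup17 at 0.938 CPM in sham library 1 (the others 0 to 0.228) and Mup20 at 0.117 CPM in sham library 1 (the others 0 to 0.0181). The Mup2 and Mup9 values are 4 reads and 1 read.

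Sham library 6 stood above the other sham libraries in fat and gland genes. Its adipocyte score was 7.87 (mean log2 CPM; the others 5.14 to 5.86) and its gland score 2.68 (the others -0.30 to 0.74). Fabp4 stood there at 1514 CPM, Car3 at 2608 CPM, Amy1 at 45.8 CPM, Klk1 at 101 CPM and Rbp4 at 48.2 CPM. Its summed Mup level of 39.4 CPM was below that of sham library 3.

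Sham library 4 was high in Myh4 at 3525 CPM and Atp2a1 at 2070.4 CPM, muscle genes. AVF-CKD library 4 was high in Lcn2 at 73.8 CPM and in Hp at 719 CPM, and also held the highest Mup sum of its group, 13.5 CPM. Dbp was low in AVF-CKD library 6, at 7.65 CPM (the others 77.7 to 99.6 CPM).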

How the results depend on the processing

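Since the groups do not overlap for the Mup sum, its sign was fixed by the choice of members, and only its size is given here. Leaving out each library gave log2 fold changes of -1.56 to -1.24. Other scalings, other filters and DESeq2 gave -1.45 to -1.44, and the tissue score covariates -1.40 to -1.22. With Cyp2e1 as a covariate, a fit chosen after its values were seen, the sum gave -1.04. The sum without Mup10, a different quantity, gave -1.85. Over title numbers 1 to 3 the full sum gave -1.67 and over 4 to 6 -1.17, a division chosen after seeing the data. Genes called by edgeR were 0 under other scalings, other filters and the block, 0 to 1 when each library was left out, and 106 with DESeq2; the cause was not tested. Without the 2 libraries farthest from the median, 3 relations changed sign: glands in sham to r = -0.49, liver in AVF-CKD to r = -0.79 and muscle in AVF-CKD to r = -0.86, each over the 4 libraries left. Counted together with the same 10 relations under library totals, where none changed sign, 17 of 20 values kept their sign. Title numbers were not taken to pair the libraries, since no label ties them. Deviations of same-numbered libraries correlated above 0.1 in 3 of 6 pairs, and 2 libraries matched best with their own number. These values cannot settle whether the libraries were paired. With the number as a replicate block the sum had -1.35, Mup3 -1.68 ± 0.23 (SE, 0.57 without the block), and 0 genes were called. Depth limits the 5 members below the filter, whose counts allow no comparison.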
